A study of Mus musculus with 86 samples.

Results

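Potassium channel genes were described in the brains of wild house mice of small and large social network size. The set comprised the protein-coding rows of the count table whose Ensembl identifiers mapped to mouse symbols starting with Kcn, which gave 94 genes out of 21397 protein-coding rows and 35275 rows in all. A further 5 rows with Kcn symbols (Kcnmb4os1, Kcnmb4os2, Kcnd3os, Kcnab3os and Kcnq1ot1) were antisense transcripts and were left out. The animals were free-ranging Mus musculus domesticus from a barn population, captured outside the breeding season at either end of the range of partners met per day in nest boxes, which is what social network size means here (the labels call it gregariousness, low or high). From 29 animals, punches of hypothalamus, hippocampus and prefrontal cortex gave 86 libraries, and no library pooled animals. There were 7 females of small and 7 of large network size, and 8 males of small and 7 of large network size, except that the hypothalamus of 1 male of small network size had no library. Animals carried no introduced allele and received no treatment, and their estimated ages, which the labels do not hold, were not used here. The summed counts of a library lay between 33711824 and 81865801 (median 44778419).

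Potassium channels let potassium ions leave a neuron or glial cell along their gradient, and so set the resting potential, end the action potential and shape the rate of firing. Voltage-gated (Kv) channels open on depolarisation, calcium- and sodium-activated channels on a rise of those ions inside the cell, inward rectifiers pass current best near the resting potential, and two-pore-domain channels carry leak. Pore subunits assemble as tetramers, or as dimers in the two-pore-domain family. Modifying Kv subunits (Kcnf, Kcng, Kcns and Kcnv) form no channel alone and join Kv2 subunits, and auxiliary subunits hold no pore and change the gating or traffic of the others. The 94 genes were grouped by symbol into Kv1 (8 genes), Kv2 (2), Kv3 (4), Kv4 (3), Kv7 (5), Kv10 to Kv12 (8), modifying Kv (10), calcium- and sodium-activated (8), inward rectifier (15), two-pore-domain (14) and auxiliary (17).

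Pore subunits share a short stretch, the selectivity filter, that strips water from potassium ions, and it is shown here because it is the sequence that the pore-forming members have in common while the auxiliary members do not. The coding sequence of the longest coding transcript of each gene was searched in frame and on the coding strand for ACN (threonine), TCN (serine) or AGN (serine or arginine), followed by NTN (a residue with T in the middle of its codon), GGN (glycine), TNN (a residue with T first in its codon) and GGN again, 15 bases in all. At least 1 match was found in 75 of the 94 members (79.8%), against 455 of all 21584 coding genes (2.11%). Every pore-forming and modifying Kv member held a match except Kcnk1 and Kcnk7, and 0 of the 17 auxiliary members did. Among the two-pore-domain genes, whose subunits carry a pair of pore loops, 11 of 14 held 2 matches. A match is a description of these letters and says nothing of conductance. For representatives of some subfamilies, the matched 15 bases are given in capitals between 15 coding bases on either side, 5′ to 3′ on the coding strand.
Kcna1: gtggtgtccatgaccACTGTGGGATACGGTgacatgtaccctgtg
Kcnd2: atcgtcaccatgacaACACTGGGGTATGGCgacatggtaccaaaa
Kcng4: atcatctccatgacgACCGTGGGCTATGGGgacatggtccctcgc
Kcnh3: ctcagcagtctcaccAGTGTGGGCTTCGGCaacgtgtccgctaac
Kcnt1: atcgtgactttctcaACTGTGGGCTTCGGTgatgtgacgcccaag
Kcnk2 pore 1: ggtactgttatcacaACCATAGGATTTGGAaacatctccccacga
Kcnk2 pore 2: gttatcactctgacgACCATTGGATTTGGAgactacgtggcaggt
These came from GENCODE vM21 transcripts of GRCm38. The Kcna1 stretch lay at chr6:126642213-126642257 on the minus strand, in exon 2 of 2, and the Kcng4 stretch at chr8:119625895-119625939 on the minus strand, in exon 3 of 4. The Kcnh3 stretch lay at chr15:99232914-99232958 on the plus strand, in exon 8 of 15. The stretches of Kcnd2 (exons 1 and 2) and Kcnk2 (exons 3 and 4, then exons 5 and 6) each ran across an exon junction. Kcng4, a modifying subunit that forms no channel by itself, held the filter pattern all the same.

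The region labels were checked against marker genes. The 13 hypothalamic neuron markers summed to a median of 982.5 CPM (counts scaled to a common library size after the TMM method) in the hypothalamus, against 13.8 in the prefrontal cortex, where 8 of the 13 had a median under 0.5 CPM, and 19.4 in the hippocampus. Cortical excitatory neuron markers summed to medians of 2646.8 CPM in the prefrontal cortex, 1771.8 in the hippocampus and 338.7 in the hypothalamus, and choroid plexus markers to 9.2, 812.5 and 85.5. Of the choroid plexus list, Ttr alone had medians of 0.95, 736.9 and 5.97 CPM in the same order. At the medians, the hypothalamus sum thus came mostly from the other genes of that list. Hippocampal neuron markers differed less, with medians of 712.1, 869.4 and 652.6 CPM in that order of regions. Markers of thalamus and striatum, which were not target regions, differed as well. Thalamus markers had medians of 173.6, 588.1 and 475.5 CPM, and striatal projection neuron markers 513.8, 401.5 and 1215.0 CPM. The part of these markers in the region differences below was not tested. A total of 5 libraries, all of males, stood apart on such a list, that is, by a step of more than 1.5 times to the next library. The prefrontal cortex of animal 20 and the hypothalamus of animal 28 were high in choroid plexus markers (463.2 and 367.1 CPM), the hypothalamus of animal 6 in thalamus markers (1682.3 CPM) and the hippocampus of animal 7 in hypothalamic neuron markers (107.3 CPM), while the hypothalamus of animal 10 was low in the latter (215.1 CPM). Each comparison below was also run without them. The RNA of the hypothalamus of animal 19 was of lower integrity than the rest according to the methods.

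Summed over the 94 genes, potassium channel mRNA per length was highest in the prefrontal cortex and lowest in the hypothalamus. In RPKM, which is CPM per kb of exon, the sum was 1092 ± 83.2 (SD, n = 29) in the prefrontal cortex, 903.6 ± 33.1 (SD, n = 29) in the hippocampus and 671.8 ± 36.8 (SD, n = 28) in the hypothalamus. The ranges were 945.3 to 1312, 855.4 to 994.0 and 604.7 to 739.3 RPKM, so that every hypothalamus library lay under every library of the other regions. In bulk tissue, fewer cells of a type and less RNA per cell cannot be told apart. A small number of genes carried much of the sum, with 46.1% of it in the 10 highest members in the prefrontal cortex, 47.3% in the hippocampus and 44.6% in the hypothalamus. At 20 RPKM or more there were 18, 15 and 9 members in the prefrontal cortex, hippocampus and hypothalamus, and under 0.1 RPKM there were 12, 10 and 10.

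The gene with the highest level in the prefrontal cortex and hippocampus was Kcnab2, a cytoplasmic beta subunit of Kv1 channels, at a mean of 101.5 and 93.8 RPKM. In the hypothalamus Kcnab2 was at 44.0 RPKM and stood behind Kcnj10, the inward rectifier with which astrocytes take up potassium, at 66.3 RPKM. Kcnj10 was at 40.8 RPKM in the prefrontal cortex and 42.2 in the hippocampus. Next in the prefrontal cortex came Kcnj4, a strong inward rectifier of forebrain neurons (65.9 RPKM), Kcna1, the axonal Kv1.1 (55.4), Kcnj9, a G protein-gated subunit (47.6), Kcnip2, a calcium-binding partner of Kv4 (47.5), and Kcnh3, a Kv12 subunit (42.1). From Kcna1 to Kcnh3, each mean differed from the next by less than the larger of their SDs over libraries. The order of these neighbours was not tested. At the other end, Kcna10, Kcnj1 and Kcnk16, channels known mainly from tissues outside the brain, had a median of 0 CPM in the prefrontal cortex and hippocampus.

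**Figure D1:**
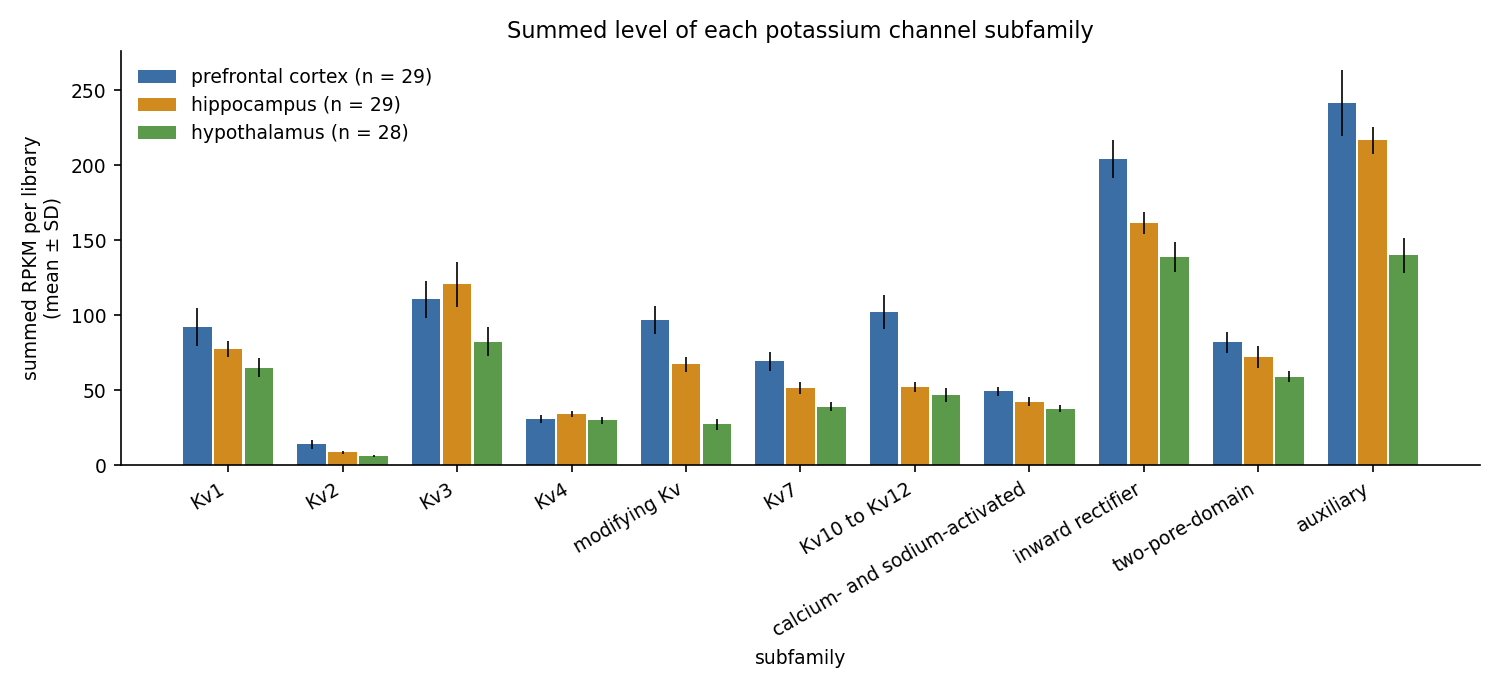
Summed RPKM (CPM per kb of exon, y axis) of each potassium channel subfamily (x axis) in the prefrontal cortex (blue, n = 29), hippocampus (orange, n = 29) and hypothalamus (green, n = 28); bars are means over libraries and error bars are SDs. The modifying Kv bar falls from 96.8 to 67.2 and 27.2 RPKM, while the Kv4 bars stay between 29.8 and 33.9 RPKM.

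Subfamilies differed in how far their sums fell from region to region. The modifying Kv subunits summed to 96.8 ± 9.49 RPKM in the prefrontal cortex, 67.2 ± 4.79 in the hippocampus and 27.2 ± 3.61 in the hypothalamus, and their share of all potassium channel RPKM was 8.87%, 7.45% and 4.05%. The Kv2 subunits with which they assemble summed to 13.7 ± 3.18, 8.51 ± 0.86 and 5.96 ± 0.77 RPKM. Kv10 to Kv12 stood at 102.2 ± 11.5 RPKM in the prefrontal cortex and 51.97 ± 3.34 and 46.6 ± 4.63 RPKM in the hippocampus and hypothalamus, so that the step lay between the cortex and the other regions. Kv3, the fast delayed rectifiers of rapidly firing neurons, was highest in the hippocampus (120.5 ± 15.3 RPKM, against 110.5 ± 12.1 and 82.3 ± 9.57). Kv4, the A-type channels of dendrites, differed least, with 30.9 ± 2.76, 33.9 ± 2.12 and 29.8 ± 2.14 RPKM. Inward rectifiers and auxiliary subunits held the largest sums in every region, at 204.0 and 241.6 RPKM in the prefrontal cortex and 139.0 and 140.1 RPKM in the hypothalamus. These sums and shares are descriptions without a test.

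Members were then compared between regions by edgeR's quasi-likelihood test in one fit over all 86 libraries with the animal as a block, with Benjamini-Hochberg adjustment over 18769 genes. Of the 94 members, 85 passed the filter on low counts. Kcna7, Kcna10, Kcne1, Kcne3, Kcnj1, Kcnk16, Kcnk18, Kcnmb3 and Kcnv2 did not and were not tested. Between the hypothalamus and prefrontal cortex, 76 of 85 members (89.4%) had an adjusted p under 0.05, against 81.3% of all genes tested. At least 2-fold lower in the hypothalamus were 30 members (35.3%, against 7.01% of all genes), and at least 2-fold higher 10 members (11.8%, against 8.56%). The median log2 fold change of the members was -0.44, that of all genes 0.02. Between the hypothalamus and hippocampus 78 members (91.8%) passed, against 76.4% of all genes. In that comparison 20 members were at least 2-fold lower in the hypothalamus (23.5%, background 5%) and 5 at least 2-fold higher (5.88%, background 4.72%). The median was -0.35 for the members and -0.01 for all genes. Between the hippocampus and prefrontal cortex 72 members passed (84.7%, background 72%). At least 2-fold lower in the hippocampus were 10 members (11.8%, background 1.78%), and 5 were at least 2-fold higher (5.88%, background 4.61%). The median was -0.17 for the members and 0.02 for all genes. The 3 comparisons share libraries and are given side by side.

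**Figure D2:**
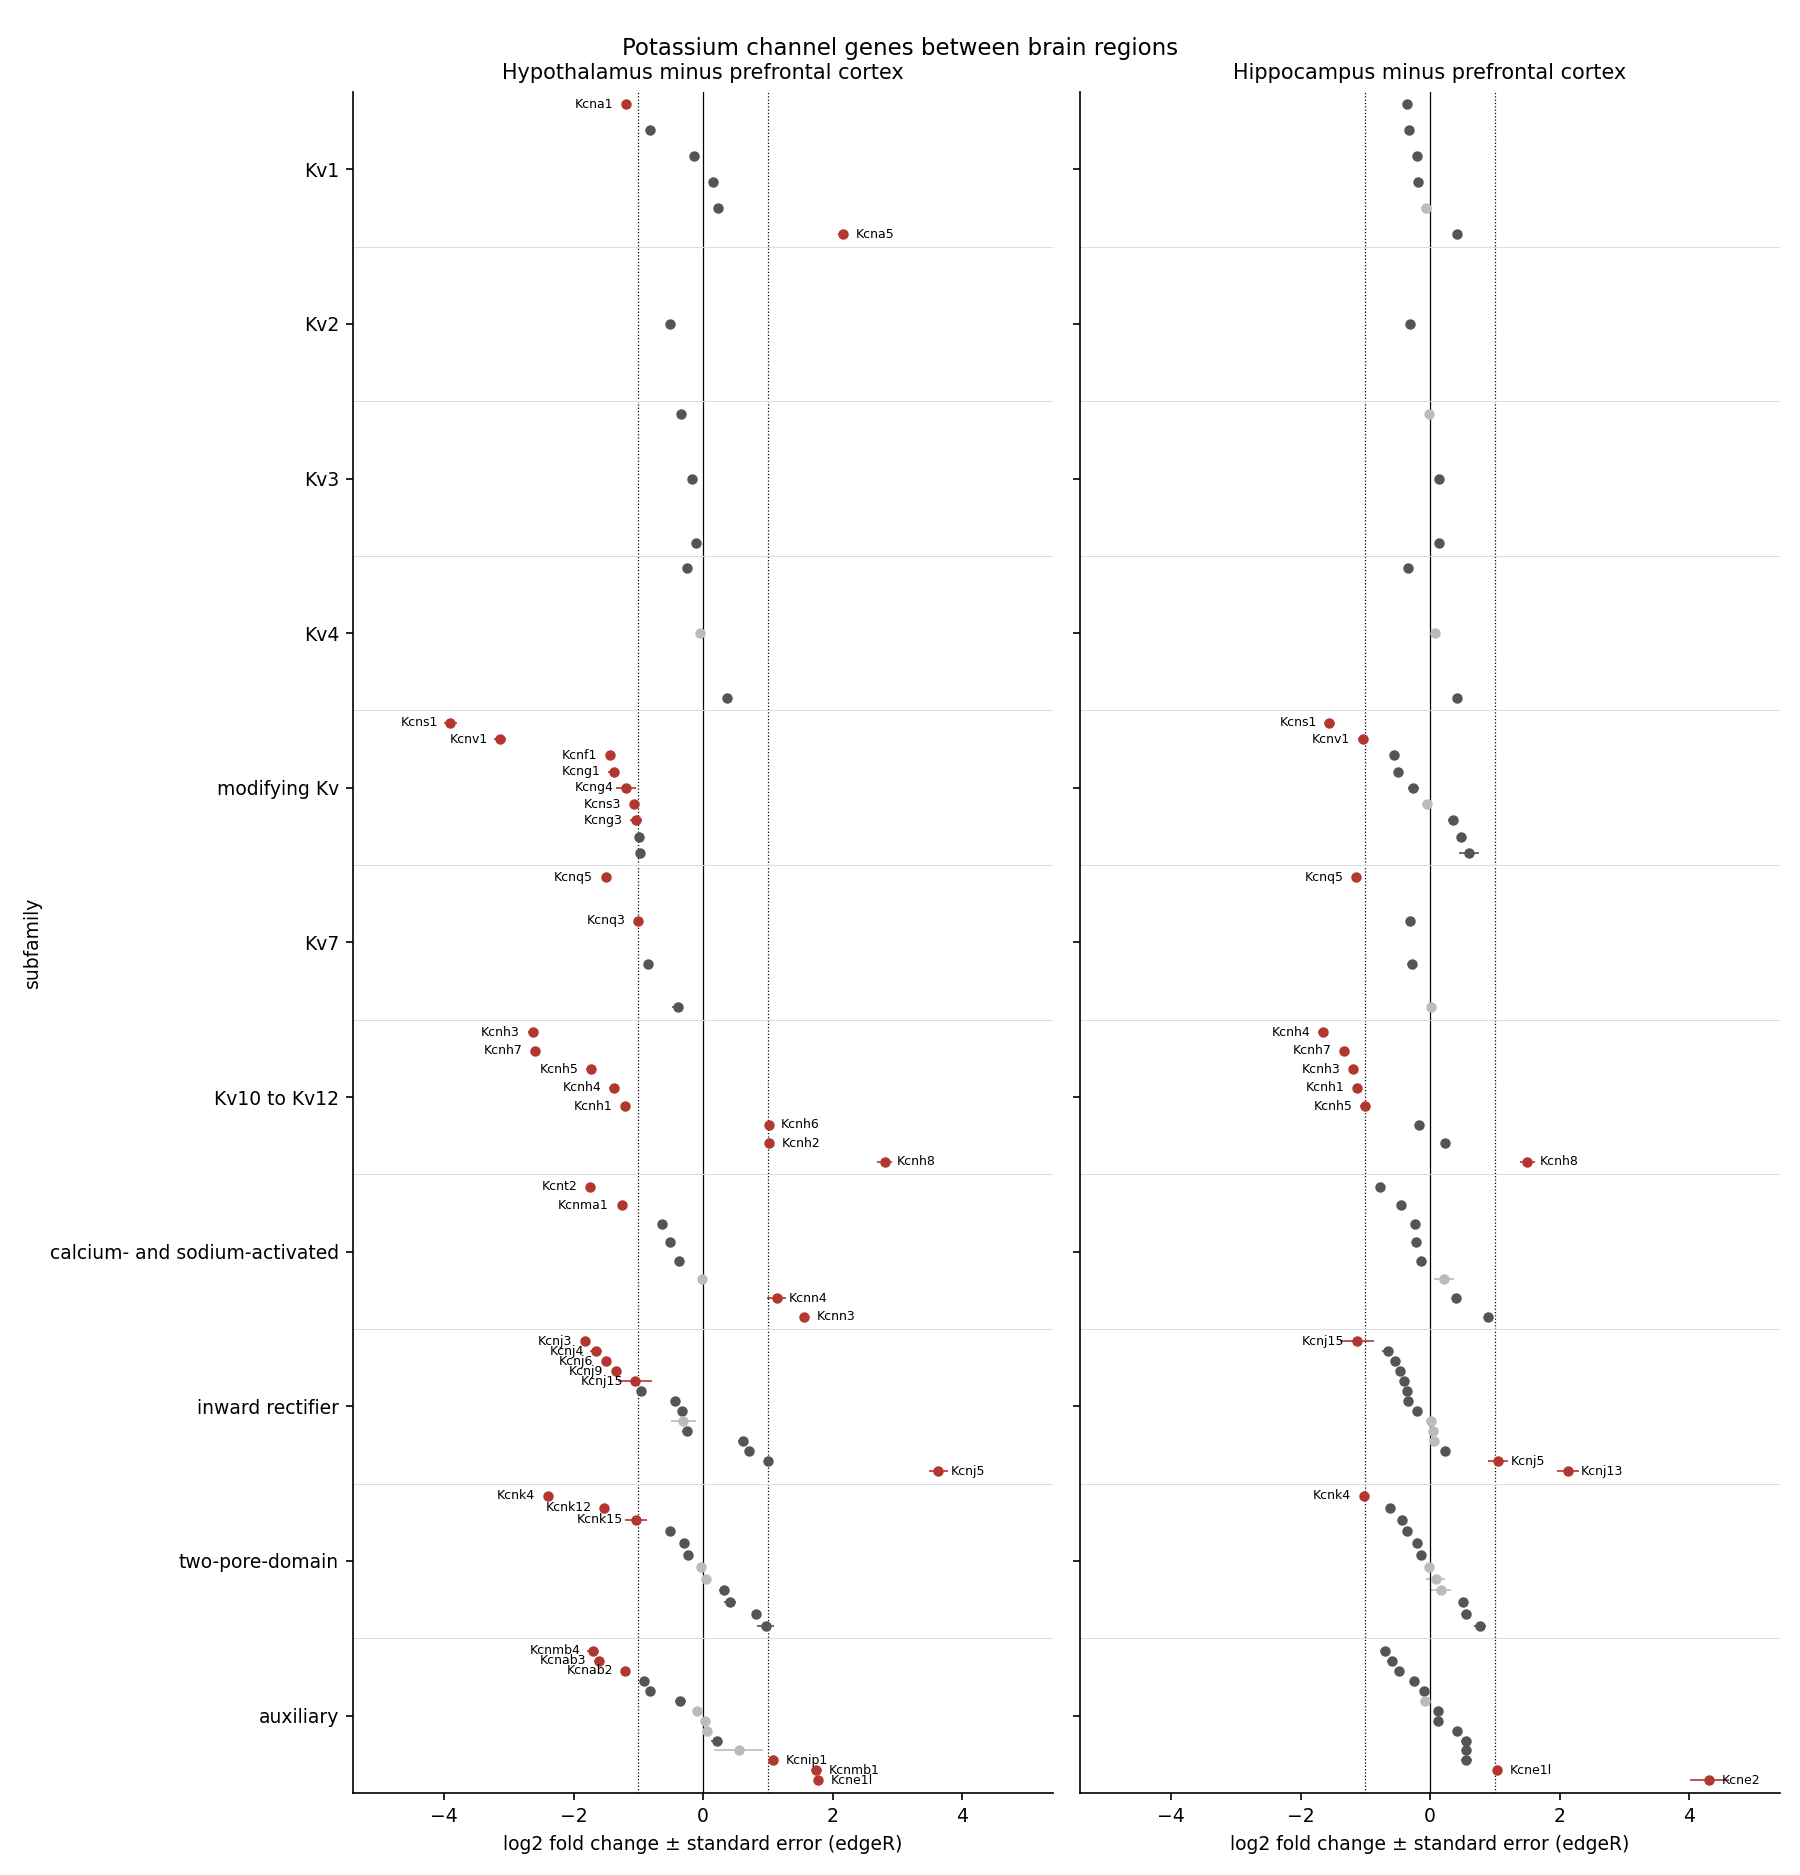
Log2 fold change (x axis, with standard error) of the tested potassium channel genes reported here, by subfamily (y axis), for the hypothalamus minus prefrontal cortex (left) and hippocampus minus prefrontal cortex (right). Red points with names are at least 2-fold different at an adjusted p under 0.05, dark points have an adjusted p under 0.05 and light points do not. All 9 modifying Kv genes lie left of 0 on the left, while the Kv10 to Kv12 genes split into 5 on the left and 3 on the right.

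The modifying Kv subunits were lower in the hypothalamus without exception among the 9 tested. Kcnv2, the modifying gene that the filter removed, went the other way at a very low level. Its median was 0.13 CPM in the hypothalamus and 0.04 CPM in the prefrontal cortex, with a higher value in 28 of 28 animals. Fitted without the filter, its log2 fold change between these regions was 1.91. All 9 were lower than in the prefrontal cortex, 7 of them at least 2-fold (background 7.01%). All 9 were also lower than in the hippocampus, 6 of them at least 2-fold (background 5%). The median log2 fold change was -1.19 against the prefrontal cortex and -1.45 against the hippocampus. Kcns1 (Kv9.1, chr2:164163619-164171113) had the largest fall of the 85 members tested between these regions. Its lowest, median and highest CPM were 15.3, 24.2 and 44.5 in the prefrontal cortex, against 5.92, 8.97 and 11.4 in the hippocampus and 0.85, 1.65 and 3.60 in the hypothalamus. No library of one region reached the range of the next, and the log2 fold change between the hypothalamus and prefrontal cortex was -3.90 ± 0.10 (SE, edgeR adjusted p = 2.69e-43), with a lower value in 28 of 28 animals. Each step was tested as well, at -1.55 ± 0.08 from the prefrontal cortex to the hippocampus and -2.35 ± 0.10 from there to the hypothalamus. Kcnv1 (Kv8.1, chr15:45106284-45114920) followed the same order, with lowest, median and highest CPM of 111.9, 145.3 and 188.9 in the prefrontal cortex, against 39.3, 70.1 and 96.9 in the hippocampus and 7.80, 16.9 and 27.4 in the hypothalamus. Its log2 fold changes were -3.13 ± 0.09 between the hypothalamus and prefrontal cortex and -1.04 ± 0.08 between the hippocampus and prefrontal cortex. Not all modifying subunits had their highest level in the cortex. Kcng1, Kcng2 and Kcng4 were higher in the hippocampus than in the prefrontal cortex, by 0.36 ± 0.08, 0.48 ± 0.06 and 0.60 ± 0.15 on the log2 scale, and Kcnf1, the most abundant of the group per length in the hippocampus, was lower there by -0.55 ± 0.05. Of the Kv2 partners, Kcnb2, a delayed rectifier, fell by 0.52 ± 0.06 from the prefrontal cortex to the hypothalamus.

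Kv10 to Kv12, the ether-à-go-go group, divided within its Kv11 and Kv12 branches but not within Kv10. Of its 8 members, 5 were at least 2-fold lower in the hypothalamus than in the prefrontal cortex (background 7.01%). The other 3 were at least 2-fold higher (background 8.56%). In the Kv12 branch, Kcnh3 (chr15:99224861-99242817) had lowest, median and highest CPM of 173.3, 236.6 and 343.7 in the prefrontal cortex, against 86.1, 105.3 and 139.6 in the hippocampus and 22.3, 39.2 and 79.98 in the hypothalamus. The 3 regions did not overlap, and the log2 fold change between the hypothalamus and prefrontal cortex was -2.63 ± 0.08 (edgeR adjusted p = 2.66e-40). Kcnh8 (chr17:52602709-52979194), of the same branch, went the opposite way at a far lower level, with 0.12, 0.32 and 0.75 CPM in the prefrontal cortex, 0.52, 0.94 and 1.47 in the hippocampus and 1.43, 2.43 and 3.10 in the hypothalamus. Its log2 fold change was 2.80 ± 0.11 (edgeR adjusted p = 5.20e-32), with a higher value in 28 of 28 animals. The hippocampus stood between the other regions with some overlap, 1.501 ± 0.12 above the prefrontal cortex and 1.30 ± 0.10 below the hypothalamus. Kcnh4, the other Kv12 gene, had lowest, median and highest CPM of 25.01, 39.1 and 56.5 in the prefrontal cortex, against 7.78, 12.4 and 16.2 in the hippocampus and 8.64, 15.4 and 27.7 in the hypothalamus. It was lower by -1.38 ± 0.08 in the hypothalamus and by -1.66 ± 0.07 in the hippocampus, relative to the prefrontal cortex. In the Kv11 branch, whose channels give a slowly deactivating current that holds the resting potential and, in the heart, repolarises the ventricle, Kcnh2 and Kcnh6 were higher in the hypothalamus (1.02 ± 0.04 and 1.01 ± 0.04), while Kcnh7 was lower (-2.60 ± 0.06). Kcnh7 had lowest, median and highest CPM of 176.3, 212.3 and 332.5 in the prefrontal cortex, against 55.2, 86.8 and 109.3 in the hippocampus and 27.2, 35.5 and 50.0 in the hypothalamus. Against the prefrontal cortex, its difference in the hippocampus was -1.33 ± 0.05. Its paralogue Kcnh2 had 39.8, 48.3 and 59.98 CPM in the prefrontal cortex and 84.7, 96.5 and 113.0 CPM in the hypothalamus, with no overlap. The Kv10 genes Kcnh1 and Kcnh5 were both lower in the hypothalamus (-1.20 ± 0.05 and -1.73 ± 0.07), as they were in the hippocampus (-1.13 ± 0.05 and -1.01 ± 0.07). In total 5 of the 8 members were at least 2-fold lower in the hippocampus than in the prefrontal cortex (background 1.78%), out of 10 such members in the whole set.

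Among the 6 Kv1 genes tested, whose channels line axons and terminals, 3 were lower and 3 higher in the hypothalamus than in the prefrontal cortex. For this and the following counts, 81.3% of all genes passed between these regions in either direction. Kcna5 (Kv1.5, chr6:126532551-126535412) stood out, with lowest, median and highest CPM of 2.45, 4.72 and 9.68 in the prefrontal cortex, against 2.71, 4.67 and 11.5 in the hippocampus and 12.6, 22.2 and 29.6 in the hypothalamus. The hypothalamus libraries lay above all others, and the log2 fold changes were 2.16 ± 0.07 against the prefrontal cortex and 2.22 ± 0.08 against the hippocampus. Between the hippocampus and prefrontal cortex its difference of -0.06 ± 0.08 did not pass (edgeR adjusted p = 0.498). Kcna1 and Kcna2, which pair in axons of myelinated fibres, were lower in the hypothalamus than in the prefrontal cortex by -1.19 ± 0.04 and -0.82 ± 0.06. Kv3 and Kv4 moved less. All 4 Kv3 genes were lower in the hypothalamus, and Kcnc1, the most abundant per length in the hypothalamus, changed by -0.17 ± 0.04. Of the Kv4 genes, Kcnd3 was higher in the hypothalamus than in the prefrontal cortex (0.37 ± 0.03), Kcnd2 lower (-0.24 ± 0.04), and Kcnd1 did not pass (-0.05 ± 0.03). Kv7 channels carry the M current that restrains repetitive firing. All 5 Kv7 genes were lower in the hypothalamus than in the prefrontal cortex, among them Kcnq3 by -1.01 ± 0.04 and Kcnq5 by -1.50 ± 0.05. Kcnq5 was also lower in the hippocampus (-1.14 ± 0.05), with lowest, median and highest values of 34.6, 59.1 and 73.4 CPM there against 111.2, 127.8 and 156.3 CPM in the prefrontal cortex.

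The calcium- and sodium-activated channels split by paralogue in the same manner. Kcnn3 (SK3), one of the small-conductance channels behind the after-hyperpolarisation, was higher in the hypothalamus than in the prefrontal cortex by 1.56 ± 0.05, whereas Kcnn1 (SK1) and Kcnn2 (SK2) were lower by -0.64 ± 0.04 and -0.52 ± 0.03. The values of Kcnn3 were 9.82, 15.3 and 24.4 CPM (lowest, median and highest) in the prefrontal cortex, 22, 29.5 and 37.4 in the hippocampus and 36.0, 46.2 and 56.2 in the hypothalamus. Kcnma1, the pore of the large-conductance (BK) channel, was lower by -1.26 ± 0.05 and its neuronal beta subunit Kcnmb4 by -1.70 ± 0.09, while Kcnmb1, the beta subunit known from smooth muscle, was higher by 1.75 ± 0.08 at a low level (a median of 2.86 CPM in the hypothalamus, against 0.80 CPM). Of the sodium-activated pair, Kcnt2 was lower by -1.75 ± 0.04, and Kcnt1 did not pass (-0.03 ± 0.05, edgeR adjusted p = 0.635).

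Inward rectifiers ran from -1.83 for Kcnj3 to 3.63 for Kcnj5 on the log2 scale between the hypothalamus and prefrontal cortex. Among the 4 subunits of G protein-gated (GIRK) channels, which open when opioid, GABA-B or muscarinic receptors are active, Kcnj3, Kcnj6 and Kcnj9 were lower in the hypothalamus by -1.83 ± 0.04, -1.50 ± 0.05 and -1.35 ± 0.05. The fourth, Kcnj5 (chr9:32314707-32344350), was higher by 3.63 ± 0.15 (edgeR adjusted p = 2.62e-32). Lowest, median and highest CPM of Kcnj5 were 0.19, 0.81 and 4.65 in the prefrontal cortex, against 0.88, 1.96 and 3.47 in the hippocampus and 8.99, 12.03 and 17.3 in the hypothalamus, so that the hypothalamus did not overlap with either region. Against the hippocampus the difference was 2.58 ± 0.14. Kcnj3 ran from 101.9 to 156.3 CPM in the prefrontal cortex and from 27.4 to 50.2 CPM in the hypothalamus. Per length, Kcnj5 had a mean of 2.57 RPKM in the hypothalamus, still below Kcnj3 (6.62 RPKM) and Kcnj9 (18.8 RPKM) but above Kcnj6 (1.49 RPKM). In the prefrontal cortex Kcnj5 was at 0.22 RPKM and the other 3 at 23.4, 47.6 and 4.21 RPKM. The glial pair Kcnj10 and Kcnj16, whose products join in one channel, were both higher in the hypothalamus, by 0.70 ± 0.04 and 0.99 ± 0.05. Of the strong rectifiers, Kcnj4 was lower by -1.65 ± 0.09, Kcnj2 by -0.44 ± 0.06 and Kcnj12 by -0.25 ± 0.08. The pores of ATP-sensitive channels, Kcnj11 and Kcnj8, were lower by -0.95 ± 0.03 and -0.33 ± 0.06.

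Of the 12 two-pore-domain genes tested, 4 were higher and 6 lower in the hypothalamus than in the prefrontal cortex. Among all genes tested, 81.3% passed in either direction, so this count lay near the background. Kcnk4, a mechanically gated leak channel, was lower by -2.40 ± 0.05, with lowest, median and highest CPM of 16.4, 24.7 and 32.7 in the prefrontal cortex, against 8.96, 11.8 and 15.6 in the hippocampus and 3.14, 4.55 and 8.14 in the hypothalamus. Its regions did not overlap, although 13.1% of its exon bases are shared with Catsperz on the same strand. Kcnk12 was lower by -1.53 ± 0.05. Kcnk2, the paralogue of Kcnk4 shown with both filters above, did not pass (-0.04 ± 0.04, edgeR adjusted p = 0.333), nor did the acid-sensitive Kcnk9 (0.05 ± 0.05, edgeR adjusted p = 0.369). Kcnk13 was higher by 0.82 ± 0.05. Kcnk1, the most abundant of the family and a member without a match to the pattern searched above, was lower by -0.51 ± 0.03.

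Of the 14 auxiliary genes tested, 4 were higher and 6 lower in the hypothalamus than in the prefrontal cortex. This count was not above the background of 81.3% of all genes passing in either direction. Kcnab2 and Kcnab3, beta subunits of Kv1, were lower by -1.20 ± 0.04 and -1.61 ± 0.08, while Kcnab1 did not pass (0.03 ± 0.06, edgeR adjusted p = 0.631). Kcnip1 was higher by 1.08 ± 0.04, with 39.8 to 55.9 CPM in the hypothalamus against 17.3 to 26.3 CPM in the prefrontal cortex. The other Kv4 partners Kcnip2 and Kcnip3 were lower by -0.81 ± 0.06 and -0.91 ± 0.04, and Kcnip4 did not pass (0.07 ± 0.03, edgeR adjusted p = 0.0728). Kcne1l, an X-linked beta subunit also named Kcne5, was higher in the hypothalamus by 1.77 ± 0.06 and in the hippocampus by 1.03 ± 0.06 than in the prefrontal cortex.

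A pair of members was highest in the hippocampus beside markers of the choroid plexus, the epithelium that makes cerebrospinal fluid. Kcne2 (chr16:92292389-92298129), an auxiliary subunit, and Kcnj13 (Kir7.1, chr1:87386363-87394729), an inward rectifier, are both known from the apical face of that epithelium. Lowest, median and highest CPM of Kcne2 were 0, 0.07 and 1.64 in the prefrontal cortex, against 0.84, 2.06 and 5.41 in the hippocampus and 0.02, 0.13 and 1.31 in the hypothalamus. Its log2 fold change was 4.31 ± 0.30 between the hippocampus and prefrontal cortex and -3.76 ± 0.28 between the hypothalamus and hippocampus. For Kcnj13 the values were 0, 0.32 and 0.73 CPM, then 0.51, 1.40 and 2.43 CPM, then 0.08, 0.23 and 0.82 CPM, with log2 fold changes of 2.13 ± 0.17 and -2.44 ± 0.17. Kcnj13 shares 49.1% of its exon bases with Gigyf2 on the opposite strand. Its count may hold reads of Gigyf2 or lack its own reads of the shared bases. The sources used here state neither whether counting used strand nor how reads of shared bases were treated. The whole choroid plexus list of 10 genes summed to between 295.7 and 1557.0 CPM in the hippocampus, between 5.6 and 463.2 in the prefrontal cortex and between 67.2 and 367.1 in the hypothalamus. In the prefrontal cortex, 6 of the 10 markers had a median under 0.5 CPM, among them Folr1 and Otx2. In the hypothalamus Folr1 and Slc4a5 did so. There Ttr, on the same list, had a median of 5.97 CPM, against 736.9 CPM in the hippocampus. The highest prefrontal cortex value of Kcne2 was that of animal 20 and the highest hypothalamus value that of animal 28, the libraries that stood apart on this list. Without the 5 libraries, Kcne2 reached at most 0.27 CPM in the prefrontal cortex, and 0.41 CPM was its maximum in the hypothalamus. The part of choroid plexus RNA in these differences was not tested.

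**Figure D3:**
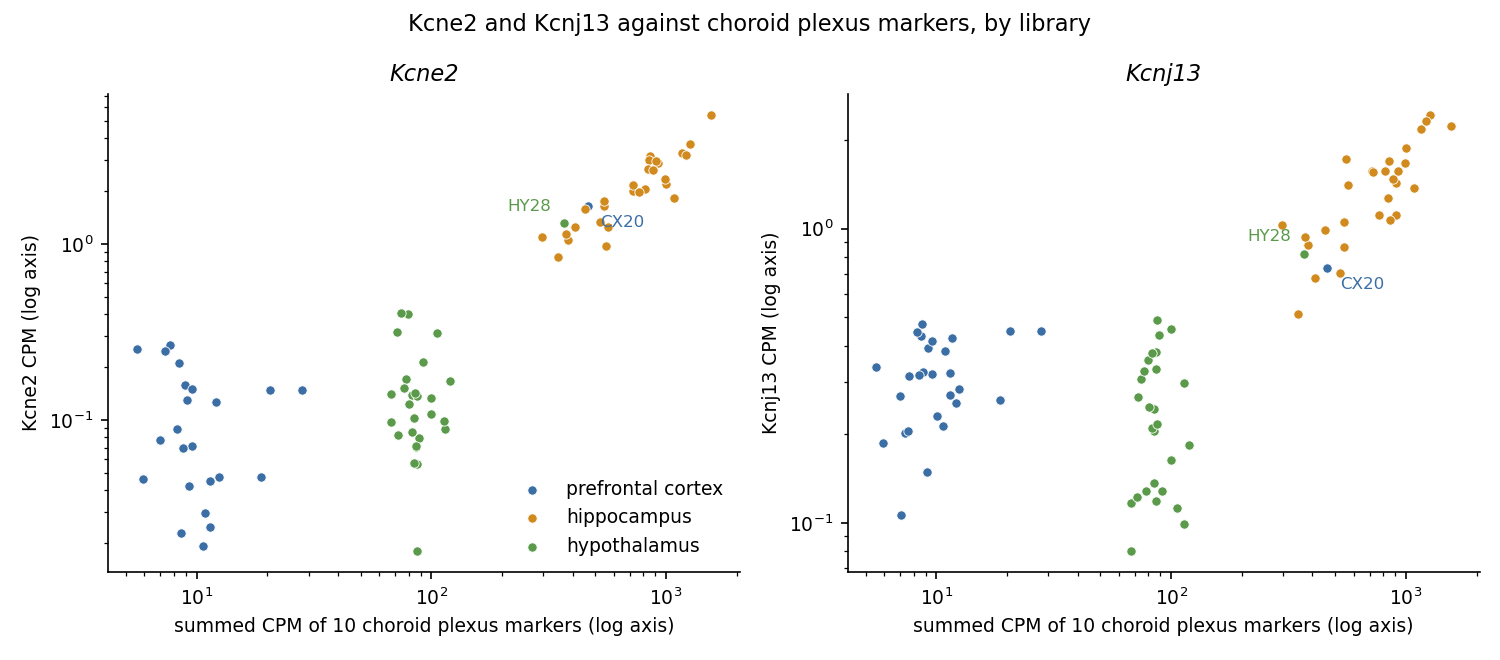
CPM of Kcne2 (left) and Kcnj13 (right) on log axes against the summed CPM of 10 choroid plexus markers (log axis), 1 point per library, in the prefrontal cortex (blue), hippocampus (orange) and hypothalamus (green). Libraries at 0 are not drawn (5 of the prefrontal cortex for Kcne2 and 1 for Kcnj13), and CX20 and HY28 are the prefrontal cortex library of animal 20 and the hypothalamus library of animal 28, which lie at 463.2 and 367.1 summed CPM among the hippocampus points.

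Members that lie next to each other in the genome did not always share a direction. Kcnj9 and Kcnj10 are 11892 bases apart on chromosome 1, on opposite strands, and between the hypothalamus and prefrontal cortex their log2 fold changes were -1.35 and 0.70. Kcnj16 and Kcnj2 are 38196 bases apart on chromosome 11 on the same strand, with 0.99 and -0.44. Kcna1 and Kcna6 on chromosome 6 had -1.19 and -0.14, and Kcna3 and Kcna2 on chromosome 3 had 0.24 and -0.82. Kcnmb1 lies on the opposite strand within the span of Kcnip1 on chromosome 11, and both were higher in the hypothalamus (1.75 and 1.08). Altogether 28 of the 94 members share exon bases with another annotated gene, but only 7 by more than 10% of their exon length, among them Kcnj13, Kcna6, Kcnmb4, Kcnj3, Kcnk4 and Kcnk2. Counts of these 7 could hold reads of the overlapping gene or lack reads of the shared bases.

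Genes that work beside potassium channels were set out in the same comparison. Of 14 partner proteins tested, 3 were higher and 10 lower in the hypothalamus than in the prefrontal cortex, 2 of them at least 2-fold lower, with a median log2 fold change of -0.44. Among all genes, 81.3% passed in either direction and 7.01% were at least 2-fold lower. Lrrc38, a gamma subunit of BK channels, was lower by -1.11 ± 0.09. Abcc8, which encodes the regulatory SUR1 subunit of ATP-sensitive channels, was lower by -0.92 ± 0.04, beside -0.95 for its pore Kcnj11. Of the cation channels opened by hyperpolarisation, Hcn3 and Hcn4 were higher (1.24 ± 0.04 and 1.84 ± 0.08). Of 13 sodium channel genes, 7 were higher and 6 lower, and of 10 pore subunits of calcium channels, 2 were higher and 7 lower, none of these at least 2-fold. The sodium-potassium pump, which restores the potassium gradient, had 3 genes higher and 2 lower of 7.

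Network size was the comparison for which the animals had been chosen. The paper states that males of large network size approached 1 SD above the population mean of partners per day without exceeding it. Females of large network size were, on average, above it. Animals of small were set against animals of large social network size within each sex and region, with each animal as 1 replicate, and a positive log2 fold change means a higher level in small networks. At an adjusted p under 0.05, edgeR's quasi-likelihood test called 0 members in any of these 6 comparisons, where it called 0.0113% of all genes in the prefrontal cortex of females, 0.00552% in the hypothalamus of females and 0% in the other 4. At an unadjusted p under 0.05 there were 19 of 84 members in the prefrontal cortex of females (22.6%, background 9.59%), 9 of 83 in the hypothalamus of females (10.8%, background 7.39%) and 16 of 84 in the hippocampus of females (19%, background 12.2%). In males the counts were 4 of 84 (4.76%, background 2.52%), 3 of 83 (3.61%, background 2.9%) and 5 of 84 (5.95%, background 3.88%) in the same order. The DESeq2 Wald test called Kcng4 in the hypothalamus and the hippocampus of females and no other member in the 6 comparisons, where it called 0.242% of all genes in the hypothalamus, 0.549% in the hippocampus and 0.333% in the prefrontal cortex of females, and 0.00554%, 0.0111% and 0.0112% in males in the same order. The unadjusted count in the prefrontal cortex of females was 12 without animal 8, whose library was also the highest of its region in summed astrocyte, mural and cortical excitatory neuron markers. In the hypothalamus of females it was 14 without animal 4, 16 without animal 19, and 5 without animal 9 or animal 23. In males it was 7 without animal 15 in the prefrontal cortex. In the hypothalamus of males it was 6 without animal 10 and 1 without animal 20, 24 or 30, and in the hippocampus of males 8 without animal 7, 3 without animal 15 or 16 and 2 without animal 20.

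**Figure D4:**
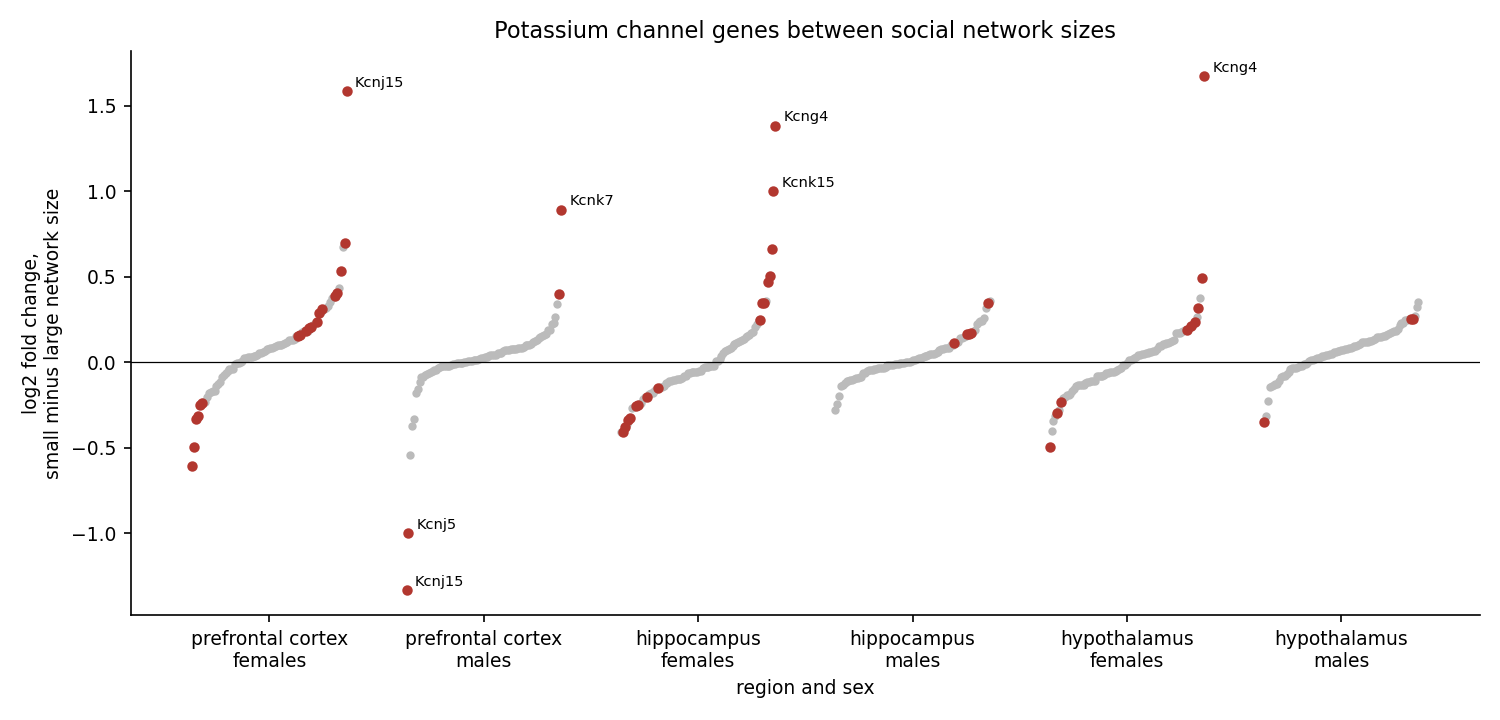
Log2 fold change of small minus large social network size (y axis) for each potassium channel gene tested, ordered by value within each region and sex (x axis). Red points have an unadjusted p under 0.05 by edgeR's quasi-likelihood test (19, 4, 16, 5, 9 and 3 from left to right) and grey points do not; genes over 0.8 in size are named, and no gene has an adjusted p under 0.05.

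The member with the smallest p between network sizes was Kcng4 (Kv6.4, chr8:119623854-119635680), the modifying subunit whose filter is shown above. In the hippocampus, its lowest, median and highest CPM were 15.9, 23.1 and 60.9 in females of small and 7.25, 9.94 and 17.6 in females of large network size. The ranges overlapped, with means of 28.2 ± 15.2 (SD, n = 7) and 10.8 ± 3.23 (SD, n = 7). The log2 fold change was 1.38 ± 0.26, which ranked 4 among 17800 genes and had an adjusted p of 0.158 by edgeR, and the two-sided exact permutation test gave p = 0.00117, unadjusted. In the hypothalamus the values were 2.99, 5.31 and 18.7 CPM in females of small and 1.77, 2.27 and 3.74 CPM in females of large network size, again with some overlap. The log2 fold change there was 1.67 ± 0.36 (edgeR adjusted p = 0.297, unadjusted exact permutation p = 0.00117). Leaving out any 1 animal gave log2 fold changes from 1.07 to 1.54 in the hippocampus and from 1.29 to 1.81 in the hypothalamus. DESeq2's Wald test gave adjusted p-values of 0.00389 in the hippocampus and 0.0202 in the hypothalamus. The same 14 females gave the libraries of both regions, so these results are not independent of each other. In males the medians of small and large network size were 17.6 and 10.9 CPM in the hippocampus and 5.20 and 5.89 CPM in the hypothalamus. The difference between the sexes in this log2 fold change was 1.15 ± 0.45 in the hippocampus and 1.60 ± 0.57 in the hypothalamus, neither past the threshold (edgeR adjusted p = 0.641 and 0.775).

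Some markers had higher medians in small networks beside Kcng4, while others differed little or went the other way. Pvalb is the calcium-binding protein of fast-spiking interneurons and of some thalamic and hypothalamic neurons. Its median was 121.2 CPM in the hippocampus of females of small and 81.1 CPM in those of large network size. In the hypothalamus of females the medians were 29.6 and 23.4 CPM. Pvalb went the other way in the prefrontal cortex of females, with medians of 76.28 CPM in small and 82.32 CPM in large networks. The log2 fold change of Kcng4 in that group was 0.38 ± 0.26 (edgeR adjusted p = 0.572). The thalamus list summed to 506.8 to 973.5 CPM (median 687.4) in the hippocampus of females of small and to 453.6 to 759.9 CPM (median 529.2) in those of large network size. In the hypothalamus of females the list ran from 356.6 to 823.8 (median 448.9) and from 370.6 to 660.6 CPM (median 407.9). The 9 midbrain dopamine neuron markers summed to 135.8 to 493.1 CPM (median 325.8) in the hypothalamus of females of small and to 107.3 to 196.0 CPM (median 139.3) in those of large network size. The highest of these sums was that of animal 23, which was second to animal 21 in Kcng4 among the hypothalamus libraries of females (12.8 and 18.7 CPM). In the hippocampus of females the dopamine list had medians of 48.9 CPM with small and 41.9 CPM with large networks. Astrocyte markers summed to medians of 3417.0 CPM with small and 3098.8 CPM with large networks in the hypothalamus of females, and 4391.1 and 4033.6 CPM in the hippocampus, with overlapping ranges in both regions. The hippocampus library of animal 23 had at once the highest Kcng4 (60.9 CPM), the highest Pvalb (276.5 CPM) and the highest thalamus sum (973.5 CPM) of all hippocampus libraries. The part of these markers in the Kcng4 values was not tested.

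**Figure D5:**
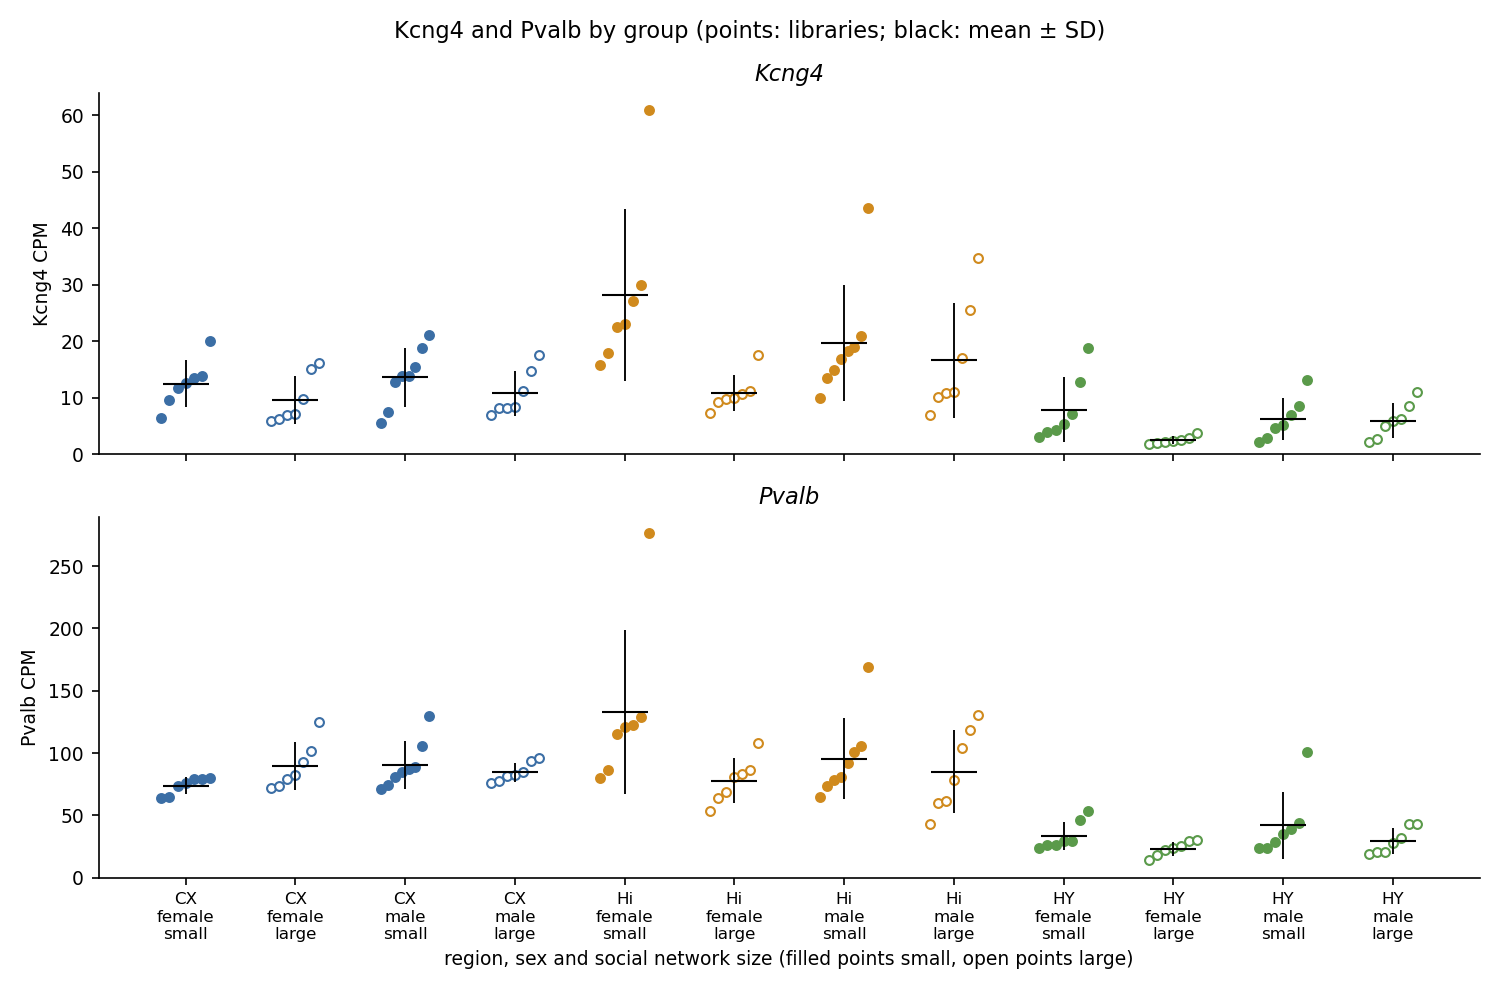
CPM of Kcng4 (top) and Pvalb (bottom) in each library (points) by region, sex and social network size (x axis; filled points small, open points large networks), with the mean and SD of each group in black. In hippocampus and hypothalamus of females, Kcng4 means are 28.2 and 7.88 CPM with small and 10.8 and 2.47 CPM with large networks, and the single highest point in both hippocampus panels is the same library.

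Other members with small unadjusted p had smaller differences. In the hippocampus of females, Kcnj12 had a log2 fold change of 0.66 ± 0.19 and Kcnh7 of -0.38 ± 0.11 (edgeR adjusted p = 0.249 for both). Median CPM in small and large networks were 19.97 and 14.0 for Kcnj12 and 73.5 and 100.2 for Kcnh7, and the ranges overlapped. In the hypothalamus of females, Kcns3, another modifying subunit, had 3.28, 4.30 and 6.16 CPM (lowest, median and highest) in small and 3.01, 3.29 and 3.49 CPM in large networks, with a log2 fold change of 0.49 ± 0.12 (edgeR adjusted p = 0.379). Kcnq5, a Kv7 subunit, had -0.30 ± 0.10 there (edgeR adjusted p = 0.580). In the prefrontal cortex of females the 3 members with the smallest p were Kcna3 (0.40 ± 0.12), Kcng3 (0.70 ± 0.22) and Kcnk10 (0.53 ± 0.17), with edgeR adjusted p of 0.432, 0.442 and 0.443. The highest value of each was that of animal 8, at 32.3, 16.1 and 7.25 CPM. Without that animal the log2 fold changes were 0.27, 0.45 and 0.40. Of the 19 members with an unadjusted p under 0.05 in that group 13 were higher and 6 lower with small networks, and of the 16 in the hippocampus of females 8 were higher and 8 lower. In the prefrontal cortex of males, Kcnk7, Kcnj16 and Kcnj15 came first (0.89 ± 0.30, 0.40 ± 0.13 and -1.33 ± 0.52, edgeR adjusted p above 0.99). Kcnk7 and Kcnj15 had medians under 0.5 CPM in both groups. Without animal 30 the value of Kcnj15 was -0.55. Kcnj16, the glial rectifier, had medians of 16.8 CPM in small and 13.9 CPM in large networks, and in the hippocampus of males of 19.3 and 14.0 CPM (0.35 ± 0.14). Kcna6 and Kcnj2 also came first in the hippocampus of males (0.11 ± 0.04 and 0.16 ± 0.07), and Kcnj8, Kcnh7 and Kcnn1 in the hypothalamus of males (-0.35 ± 0.14, 0.25 ± 0.10 and 0.25 ± 0.12), all with an edgeR adjusted p above 0.99.

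Taking both sexes in one fit with sex as a covariate, edgeR called 0 members in the prefrontal cortex, hypothalamus and hippocampus, against 0.0163%, 0% and 0% of all genes. At an unadjusted p under 0.05 there were 8, 2 and 10 members (9.41%, 2.41% and 11.8%, backgrounds 8.16%, 3.39% and 8.94%). Kcng4 led in the hippocampus (0.79 ± 0.25, edgeR adjusted p = 0.508) and in the hypothalamus (0.85 ± 0.32, edgeR adjusted p above 0.99), and Kcng3 in the prefrontal cortex (0.44 ± 0.14, edgeR adjusted p = 0.590). They were followed by Kcnip1 (0.17 ± 0.06) and Kcnj12 (0.38 ± 0.14) in the hippocampus, Kcnip1 (-0.10 ± 0.05) and Kcns3 (0.21 ± 0.11) in the hypothalamus, and Kcnk10 (0.32 ± 0.10) and Kcna3 (0.21 ± 0.08) in the prefrontal cortex. For the interaction of sex with network size (the log2 fold change in females minus that in males), 0 members were called in any region (background 0% in each). An unadjusted p under 0.05 was found for 11, 3 and 10 members in the prefrontal cortex, hypothalamus and hippocampus (12.9%, 3.61% and 11.8%, backgrounds 4.17%, 6.14% and 7.37%). The DESeq2 Wald test also called 0 members in these 6 comparisons. That test called 0.0813%, 0.0267% and 0.0538% of all genes between network sizes and 0.0867%, 0% and 0.00538% for the interaction, in the prefrontal cortex, hypothalamus and hippocampus. In the prefrontal cortex the first was Kcnj15 (2.92 ± 0.90, edgeR adjusted p = 0.703), a rectifier at a median of 0.25 CPM whose values were carried by animal 8 (2.63 CPM) and animal 30 (1.69 CPM). Kcnj5 and Kcnj16 followed it (1.68 ± 0.58 and -0.57 ± 0.20, edgeR adjusted p above 0.99), and the highest Kcnj5 values were again those of animals 30 and 8 (4.65 and 2.69 CPM). Kcnh7 led in the hippocampus (-0.52 ± 0.15, edgeR adjusted p = 0.641) and Kcns3 in the hypothalamus (0.55 ± 0.19, edgeR adjusted p = 0.775). Next came Kcnk5 and Kcnj16 in the hippocampus (0.71 ± 0.26 and -0.52 ± 0.20, edgeR adjusted p = 0.641) and, after Kcng4, Kcnh4 in the hypothalamus (-0.65 ± 0.31, edgeR adjusted p = 0.787).

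Between the sexes, edgeR called 0 members in the prefrontal cortex, hypothalamus and hippocampus, against 0.0976%, 0.117% and 0.102% of all genes. At an unadjusted p under 0.05 there were 7, 9 and 3 members (8.24%, 10.8% and 3.53%, backgrounds 4.98%, 6.79% and 5.99%). The smallest p in the hypothalamus was that of Kcnj8, the ATP-sensitive pore of vascular mural cells, with medians of 1.98 and 1.88 CPM in females of large and small and 2.87 and 2.09 CPM in males of large and small network size. Its log2 fold change of females minus males was -0.37 ± 0.09 (edgeR adjusted p = 0.161, DESeq2 adjusted p = 0.0305, the only member that DESeq2 called between the sexes, against 0.197% of all genes there, 0.152% in the prefrontal cortex and 0.129% in the hippocampus). In the prefrontal cortex it was Kcnj14, with -0.38 ± 0.09 (edgeR adjusted p = 0.192), followed by the Kv4 partners Kcnip3 (0.14 ± 0.05) and Kcnip2 (-0.16 ± 0.05). Kcnd2 and Kcna1 followed Kcnj8 in the hypothalamus (-0.12 ± 0.05 and -0.21 ± 0.08). In the hippocampus the smallest p were those of Kcnip3 (0.12 ± 0.05), Kcnh5 (-0.23 ± 0.10) and Kcna1 (-0.11 ± 0.05), each with an edgeR adjusted p of 0.811.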

How the data were processed

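The data were counts of reads per gene, whole numbers as deposited, in one table of 86 libraries. The authors aligned paired-end RNA-seq reads to GRCm38 and counted them per gene with HTSeq, and the submitters' processing notes name CASAVA 1.8.2, STAR and DESeq2. The annotation release and the strand setting were not given in the sources used here. Identifiers were matched to GENCODE vM21. CPM was computed on TMM-scaled library sizes, and RPKM by total exon length. Genes passed filterByExpr (minimum count 10, minimum total 15, proportion 0.7). Tests were edgeR 4.0.16 quasi-likelihood fits in R 4.3.3 with Benjamini-Hochberg adjustment over all genes tested. The standard errors given with these log2 fold changes were derived from the test. Each is the absolute log2 fold change divided by the square root of the F statistic. Region contrasts had the animal as a block, which pairs libraries because they came from the same animal, and network size was tested within sex and region. Exact permutation tests used scipy 1.17.1. Alternatives were DESeq2 1.42.0, its size factors, no filter, no block, a joint fit of the 4 groups of a region, leaving out each library, and leaving out the 5 libraries that stood apart, the last chosen after seeing the data. Scripts were tested on simulated data. Genes with values were named by rule: per region contrast the 3 members with the largest rise and fall, per other comparison the 3 with the smallest p, and Kcng4, chosen because earlier results of these same libraries had shown it, so that its choice is not independent of them. Further members are given by role. The members and lists were chosen with earlier results of these data known. Some members and sequences are not reported here.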

Additional observations from a re-analysis of the deposited data

Results flagged for a closer look

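In 17 of 124 combinations of a named member and a group, 1 library lay far from the others of its group, that is, its gap to the nearest library was a larger part of the group's range than Dixon's critical value allows. For a single group of independent values chance does this about 1 time in 20, but these combinations share animals and many members were named for a small p in the same libraries, so the count was not tested against that rate. Kcng4 was far above its group in the hippocampus of animal 23 (60.9 CPM, small networks), animal 9 (17.55 CPM, large networks), both females, and animal 7 (43.59 CPM, a male of small network size). The hippocampus of animal 23 was also highest for Kcnj12 (40.44 CPM) and Kcna1 (254.2 CPM), and that of animal 7 highest for Kcnj12 (27.55 CPM) and lowest for Kcnh7 (65.73 CPM). The prefrontal cortex of animal 8, a female of small network size, was far above its group for Kcna3 (32.25 CPM), Kcng3 (16.05 CPM), Kcnj5 (2.685 CPM) and Kcnj15 (2.625 CPM). That of animal 30, a male of large network size, was far above for Kcnj5 (4.651 CPM) and Kcnj15 (1.685 CPM), and that of animal 6, a male of small network size, for Kcnk7 (0.6758 CPM). In the hippocampus, animal 8 was highest for Kcnip3 (132.8 CPM) and Kcnk5 (1.912 CPM), and animal 11, a male of large network size, was lowest for Kcnip3 (74.88 CPM).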

How the results depend on the processing

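Without the filter on low counts, 9 members in place of 5 were at least 2-fold higher in the hypothalamus than in the hippocampus, the added ones being Kcnk16, Kcnj1, Kcna10 and Kcnv2, which the filter had removed. With the DESeq2 Wald test, 1 member in place of 0 was called between network sizes in the hypothalamus of females, 1 in the hippocampus of females (Kcng4 in both) and 1 between the sexes in the hypothalamus (Kcnj8); the cause was not tested. Region counts in the paired fit, with the animal as a block, stayed within 1.5 times without the block, at 10 members at least 2-fold higher and 31 lower in the hypothalamus than in the prefrontal cortex. Counts of members called between network sizes ranged from 0 to 0 when each library was left out. The named log2 fold changes kept their sign in each fit that was run: 63 values under DESeq2 size factors, the DESeq2 Wald test and no filter, 54 without the 5 libraries that stood apart, 18 region values without the block, and 18 network-size values within a sex with all 4 groups in one fit and when each library was left out. Of 33 subfamily shares, 26 moved by more than 1 SD when the longest transcript replaced the total exon length, so shares depend on the length used. Kcna10, Kcnj1 and Kcnk16, tested only without the filter, had a median of 0 CPM in the hippocampus, so their differences rest on few counts.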
